A study of Rattus norvegicus with 7 samples.

Results

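The aryl hydrocarbon receptor pathway was examined in the meibomian gland, a lipid-secreting gland of the lid margin that coats the tear film, with and without ultraviolet B (UVB) irradiation of the lid. The members were chosen by name, with earlier results of these data known. They are the receptor gene Ahr, its partner Arnt, its repressor Ahrr, and the target genes Cyp1a1, Cyp1b1 and Tiparp. All 6 were found by symbol among the 17246 genes of the deposited tables, and all 6 had enough counts to be tested. RNA sequencing gave 4 control and 3 UVB libraries of glands from wild-type female Sprague-Dawley rats aged 3 months. For irradiation the upper lids were shaved and given 300 mJ/cm2 in a 5 min session on each of 5 days. The controls are listed as untreated. Whether their lids were shaved, and how long after the final session the glands were taken, is not stated. The labels do not say whether a library is 1 animal or a pool, so the p-values measure the spread between these libraries, which may be partly technical.

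The receptor is a transcription factor of the bHLH-PAS family that waits in the cytosol in a complex with the chaperone HSP90. Its ligands include dioxins, polycyclic aromatic hydrocarbons and tryptophan derivatives, among them photoproducts that form when ultraviolet light strikes tryptophan in skin. Once bound, it enters the nucleus, pairs with ARNT and binds xenobiotic response elements, which raises Cyp1a1 and other genes of xenobiotic metabolism together with the genes of its own inhibitors, AHRR and TIPARP.

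The libraries held 20680237 to 28784941 counts, and members' counts per library ran from 55 for Ahrr to 3315 for Cyp1a1. Levels are given as TMM-scaled CPM, counts relative to library size, unless TPM, which also correct for gene length, are named. The 7 libraries are named by letter within their group, and equal letters pair nothing. Of the meibocyte markers, the desaturase gene Scd stood at 79749 ± 7649 CPM (SD, n = 4) and the wax synthase gene Awat2 at 9122 ± 523 CPM (SD, n = 4) in the controls, so the labelled tissue showed its defining markers. Skeletal muscle markers summed to 1852 to 2488 CPM in the controls, so the libraries were not of meibocytes alone.

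Cyp1a1 and Ahr had lower transcript levels after UVB, and no member rose. Cyp1a1 fell by 49.5% and Ahr fell by 24.9%. Cyp1b1, Tiparp, Ahrr and Arnt had log2 fold changes of -0.38, -0.26, -0.38 and -0.10 that did not pass the threshold of 0.05 on the adjusted p. By edgeR's quasi-likelihood test with Benjamini-Hochberg adjustment, 13.0% of the 13709 genes tested were called in either direction, 6.74% lower and 6.30% higher. Of the members, 2 of 6 were called lower (33.3%) and 0 of 6 higher, shares that may reflect how the members were chosen. Their fold changes were all below 0, with a median of -0.38 on the log2 scale, against a median of -0.01 over all genes tested. In 5 of the 6, Ahrr being the exception, every UVB library lay below every control, a pattern found in 13.8% of all genes tested.

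**Figure D1:**
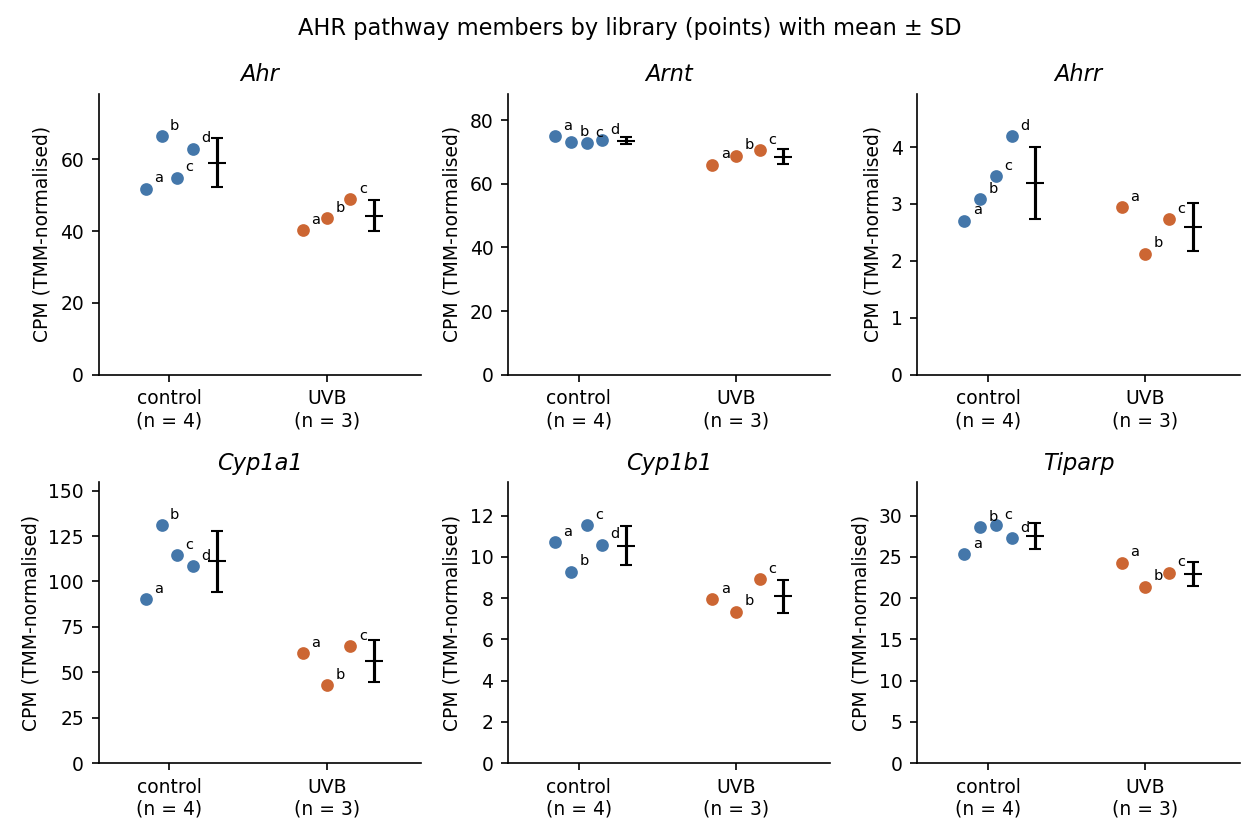
Level of each of the 6 members in every library, in CPM, with controls on the left, UVB libraries on the right and the library letter beside each point; bars are the mean and SD (n = 4 and n = 3). Cyp1a1 shows the widest gap, from 90.1 CPM in the lowest control to 64.4 in the highest UVB library, and Ahrr is the member whose groups overlap.

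RefSeq promoter windows of 300 bases (250 before the start of the gene to 50 after it, assembly GRCr8) were matched by symbol for Ahr, Arnt, Ahrr, Cyp1b1 and Tiparp, and Cyp1a1 had no entry. Each was searched on both strands for GCGTG, the core of the xenobiotic response element, and for TNGCGTG, a longer form that contains it. The windows of the repressor and of both targets with an entry are shown because these 3 genes are known to be induced by the receptor. They lie at chr1:30821969-30822268 (plus strand, Ahrr), chr6:21094315-21094614 (plus strand, Cyp1b1) and chr2:152063519-152063818 (plus strand, Tiparp), read 5′ to 3′ along the gene. Capitals mark GCGTG or its reverse complement CACGC.
Ahrr: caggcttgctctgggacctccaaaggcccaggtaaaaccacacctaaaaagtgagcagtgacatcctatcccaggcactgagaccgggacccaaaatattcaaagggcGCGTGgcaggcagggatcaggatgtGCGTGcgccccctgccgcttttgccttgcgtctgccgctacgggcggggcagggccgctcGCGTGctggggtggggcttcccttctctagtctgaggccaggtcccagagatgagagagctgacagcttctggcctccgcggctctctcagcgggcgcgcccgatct
Cyp1b1: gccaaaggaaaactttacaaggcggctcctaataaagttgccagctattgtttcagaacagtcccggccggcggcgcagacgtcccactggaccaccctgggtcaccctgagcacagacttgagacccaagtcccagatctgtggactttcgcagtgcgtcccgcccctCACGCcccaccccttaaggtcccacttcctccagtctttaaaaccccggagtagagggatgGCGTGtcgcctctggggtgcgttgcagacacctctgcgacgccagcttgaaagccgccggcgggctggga
Tiparp: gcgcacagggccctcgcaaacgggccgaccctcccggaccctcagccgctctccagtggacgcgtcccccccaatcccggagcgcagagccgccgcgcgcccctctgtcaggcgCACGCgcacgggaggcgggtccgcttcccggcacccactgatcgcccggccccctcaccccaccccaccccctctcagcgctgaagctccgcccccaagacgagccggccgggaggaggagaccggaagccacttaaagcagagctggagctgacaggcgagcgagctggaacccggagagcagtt

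Ahrr held 3 cores in its window, beginning at -142, -117 and -57 from the gene's start, all on the strand of the gene. Of the 33469 promoter windows of any composition, 3.59% held as many. Cyp1b1 held 2, at -20 on its own strand and at -81 on the other strand, a number reached by 10.2% of windows. Tiparp held 1, at -136 on the other strand, and Arnt (chr2:185686453-185686752, plus strand) held 1 at -42. The Ahr window (chr6:57998852-57999151, minus strand) held none. The longer form occurred once each in Ahrr and Cyp1b1.

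The core was thus present in 4 of the 5 windows, against 29.7% of all windows, and the longer form in 2 of 5 against 4.89%. The members' windows were rich in G and C, at 57.3% to 74.7% against a median of 51.7%, and among the 9997 windows of that range of composition 54.9% held the core. For the longer form, and for 2 or 3 cores, no share at like composition was computed, so their shares over all windows are not a matched comparison. Beside these matches, Ahrr, with 3 cores, and Ahr, with none, had log2 changes of similar size. That of Ahrr was -0.38 (SE 0.21) and was not called (edgeR adjusted p = 0.266). That of Ahr was -0.41 (SE 0.10) and was called (edgeR adjusted p = 0.0288). A match is a description of the letters in the window and shows no binding.

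**Figure D2:**
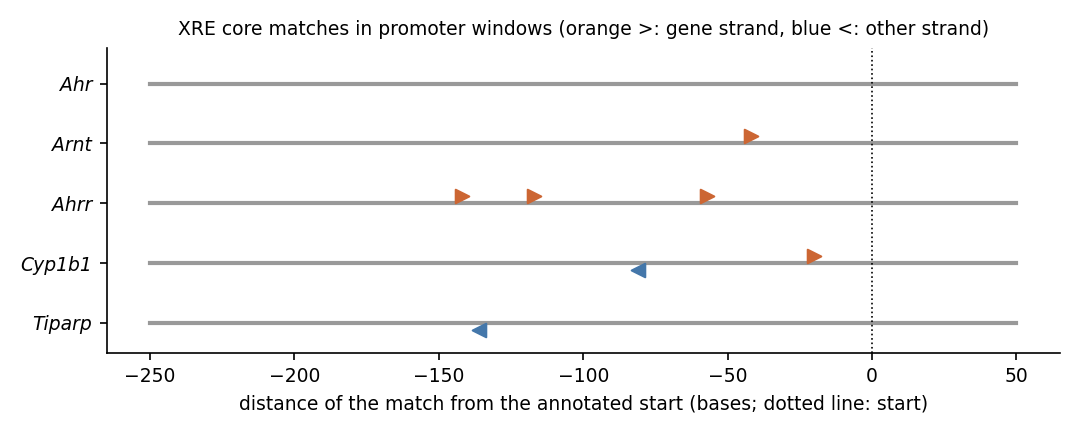
Position of each GCGTG core in the 300-base promoter windows of the 5 members with an entry, in bases from the start of the gene; the side of the line gives the strand. Ahrr has 3 cores on the strand of the gene, Cyp1b1 has 1 on each strand, and Ahr has none.

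Ahr, which encodes the receptor itself, stood at 51.9, 66.4, 55.0 and 63.0 CPM in controls a to d and at 40.3, 43.7 and 48.9 CPM in UVB a to c. The groups did not overlap, but the highest UVB library and the lowest control were close. The means were 59.1 ± 6.79 (SD, n = 4) and 44.3 ± 4.29 (SD, n = 3), a log2 change of -0.41 (SE 0.101, 95% confidence interval -0.64 to -0.19, edgeR quasi-likelihood test, Benjamini-Hochberg adjusted p = 0.0288). This call did not hold in every fit with 1 library left out. It was lost without control b (-0.35, edgeR adjusted p = 0.0652), control c (-0.45, 0.0512), control d (-0.38, 0.0793), UVB a (-0.35, 0.0853) or UVB b (-0.40, 0.0866). In these fits 851 to 1214 of all genes were called, against 1787 with all libraries. Over the 17 alternative settings the adjusted p ran from 0.00557 to 0.0866, and the log2 fold change stayed between -0.49 and -0.35.

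Arnt, the partner that the receptor shares with the hypoxia-inducible factors, was the steadiest member. It stood at 74.9, 73.0, 72.8 and 73.7 CPM in the controls and at 66.0, 68.9 and 70.6 CPM after UVB. The 4 controls lay close together, and the 3 UVB libraries all lay below them. The log2 fold change was -0.10 (SE 0.0542, 95% confidence interval -0.22 to 0.02) and was not called (edgeR adjusted p = 0.236).

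Ahrr, the repressor that competes with the receptor for ARNT, was the scarcest member, with 55 to 101 counts per library. Its levels were 2.71, 3.08, 3.48 and 4.19 CPM in controls a to d and 2.94, 2.13 and 2.74 CPM in UVB a to c. UVB a and UVB c lay within the control range, and UVB b lay below it. The log2 fold change of -0.38 (SE 0.212) had a 95% confidence interval from -0.85 to 0.10 and was not called (edgeR adjusted p = 0.266). It was -0.25 without control d or UVB b and -0.18 on log2(TPM + 1), and over 17 settings it ran from -0.47 to -0.18 with adjusted p from 0.182 to 0.554. Other annotated genes overlap Ahrr in the RefSeq assembly GRCr8, and no source says whether reads were counted by strand, so reads of these genes could not be separated here.

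Tiparp encodes an ADP-ribosyltransferase that modifies the receptor and dampens its activity. Its levels were 25.3, 28.6, 28.9 and 27.3 CPM in the controls and 24.3, 21.4 and 23.1 CPM after UVB. The highest UVB library, UVB a, lay just below the lowest control, control a. The log2 fold change of -0.26 (SE 0.0801, 95% confidence interval -0.44 to -0.08) did not pass the threshold (edgeR adjusted p = 0.0591). It passed in DESeq2 (adjusted p = 0.0458) and in edgeR without control a (adjusted p = 0.0415), within a range of 0.0415 to 0.181 over 17 settings. An uncharacterised gene overlaps Tiparp in GRCr8.

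Cyp1a1, the monooxygenase gene most used as a readout of the receptor, changed most. It stood at 90.1, 131.2, 114.4 and 108.5 CPM in controls a to d and at 60.8, 43.0 and 64.4 CPM in UVB a to c. No UVB library reached the lowest control, and UVB b was lowest of all. The means were 111.0 ± 16.9 (SD, n = 4) and 56.1 ± 11.5 (SD, n = 3), a log2 change of -0.99 (SE 0.165, 95% confidence interval -1.37 to -0.61, edgeR adjusted p = 0.0104). The call held in each of 17 alternative settings, with log2 fold changes from -1.10 to -0.82 and adjusted p from 1.22e-07 to 0.0316. By p-value it ranked 392 among the 13709 genes tested.

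Cyp1b1, a related monooxygenase gene that also acts on oestrogens, stood at 10.7, 9.29, 11.6 and 10.6 CPM in the controls and at 7.96, 7.35 and 8.94 CPM after UVB. The groups did not overlap, with UVB c close to control b. The log2 fold change was -0.38 (SE 0.124, 95% confidence interval -0.66 to -0.11) and was not called by edgeR (adjusted p = 0.0701). DESeq2 called it (-0.38, adjusted p = 0.0473), and over the 17 settings the adjusted p ran from 0.0473 to 0.197. Its annotated span overlaps that of Rmdn2 in GRCr8.

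**Figure D3:**
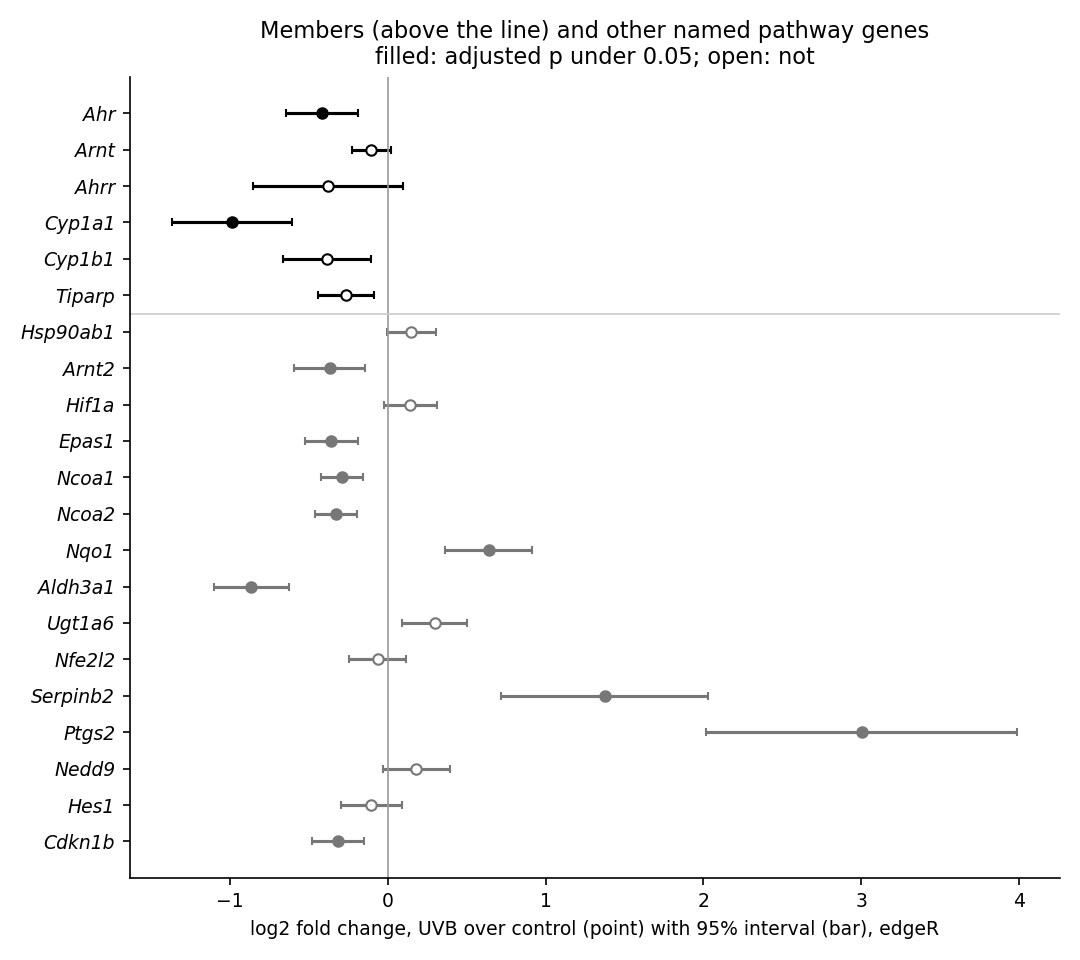
Log2 fold change (UVB over control) of the 6 members and of the other named pathway genes, with 95% confidence intervals; filled points passed an adjusted p of 0.05 and open points did not. Among the members the intervals of Cyp1a1 (-1.37 to -0.61) and Ahr (-0.64 to -0.19) belong to the called genes, and all 6 estimates lie below 0.

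Compared per length, Cyp1a1 was the most abundant member in the controls at 71.1 ± 11.2 TPM (SD, n = 4). It was followed by Arnt at 32.4 ± 1.06, Ahr at 18.5 ± 2.07, Tiparp at 11.9 ± 0.837, Cyp1b1 at 3.41 ± 0.340 and Ahrr at 1.17 ± 0.222 TPM. No neighbours in this order overlapped across the 4 controls. After UVB the order of the means was the same, but Cyp1a1 at 36.1 ± 7.78 TPM (SD, n = 3) and Arnt at 30.7 ± 0.307 TPM now overlapped, with Cyp1a1 at 27.2 TPM in UVB b, under every Arnt value. The other neighbours remained apart, with means of 14.0 TPM for Ahr, 9.98 for Tiparp, 2.59 for Cyp1b1 and 0.907 for Ahrr.

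The balance between paired members was compared through ratios of TPM. Percentages are of the deposited values, and for the log2 ratios and their test 0.1 TPM was added to each value. The repressor Ahrr amounted to 5.78%, 5.11%, 7.03% and 7.34% of Ahr in controls a to d and to 8.04%, 5.38% and 6.18% in UVB a to c. These ranges overlapped, and the log2 ratios of -3.89 ± 0.227 (SD, n = 4) and -3.81 ± 0.270 (SD, n = 3) differed by 0.07 (exact two-sided permutation test, p = 0.743, adjusted over 2 ratios 0.743). The sign of that difference turned without control b (-0.02) or UVB a (-0.07).

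Cyp1b1 amounted to 6.0%, 3.59%, 5.12% and 4.89% of Cyp1a1 in the controls and to 6.6%, 8.39% and 6.91% after UVB. Every UVB ratio lay above every control ratio, with control a and UVB a closest. The log2 ratios of -4.34 ± 0.307 (SD, n = 4) and -3.73 ± 0.189 (SD, n = 3) differed by 0.60 (exact two-sided permutation test, p = 0.0571, adjusted over 2 ratios 0.114). The smallest p that the 35 splits of these libraries allow is 0.0286, and adjusted beside the other ratio it could not go below 0.0571, so passing the threshold was not possible.

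A list of 45 other genes of the pathway was described by role. Of these, 43 were in the tables and 35 had enough counts to be tested, of which 3 were called higher and 6 lower (25.7%, against 13.0% of all genes tested). The list was chosen with earlier results of these data known, so this share may reflect the choice. The median log2 fold change of the 35 was 0.03, with 18 genes above 0 and 17 below. The sign of the median turned without control a or without the low-count filter.

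Among the genes of xenobiotic metabolism, Aldh3a1 and Nqo1 moved in opposite directions. Aldh3a1, an aldehyde dehydrogenase gene best known from the cornea and a classical target of the receptor, stood at 384.8, 484.6, 437.7 and 467.6 CPM in the controls and at 224.7, 226.2 and 280.8 CPM after UVB. The groups were far apart, and Aldh3a1 fell by 45% (log2 fold change -0.86, SE 0.107, edgeR adjusted p = 0.00303). Nqo1, a quinone reductase gene that both the receptor and NRF2 can induce, stood at 43.6, 33.7, 36.8 and 47.0 CPM in the controls and at 59.2, 71.0 and 58.1 CPM after UVB. Every UVB library lay above every control, and Nqo1 rose by 55.8% (log2 fold change 0.64, SE 0.122, edgeR adjusted p = 0.0124). UVB b, the library lowest in Cyp1a1, was the one highest in Nqo1. Both calls held in each of 17 alternative settings, with adjusted p up to 0.0122 for Aldh3a1 and 0.0406 for Nqo1.

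Neither of the other genes of this battery that were tested was called. Ugt1a6, a glucuronosyltransferase gene, had 86.3 ± 6.22 CPM in the 4 controls and 106.1 ± 13.5 CPM in the 3 UVB libraries (mean ± SD), a log2 change of 0.30 (SE 0.0914, edgeR adjusted p = 0.0614, and 0.0309 to 0.178 over 17 settings). Every UVB library lay above every control, with control d (93.5 CPM) and UVB a (94.7 CPM) close. Ugt1a6 shares exons with the rest of the Ugt1a cluster, so its counts are uncertain. Nfe2l2, which encodes NRF2, had a log2 change of -0.06 (edgeR adjusted p = 0.646). Cyp1a2, a close relative of Cyp1a1 and chiefly a liver enzyme, had at most 3 counts in any library and was not tested. Gsta2, a glutathione transferase gene singled out after its values were seen, was also too scarce to test, with 1, 2.44, 3 and 3 counts in the controls and 8, 16.4 and 9 after UVB. Its UVB values lay above every control, and near-identical copies make its counts uncertain.

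Among the receptor's relatives, 2 of the 3 bHLH-PAS genes tested were called lower and none higher. Of the coregulators, 2 of the 7 tested were called lower and none higher. Over all genes tested, 6.74% were called lower. Of the bHLH-PAS genes, Epas1, which encodes HIF-2α, went from 215.8 ± 15.2 CPM (SD, n = 4) to 168.6 ± 12.3 (SD, n = 3), a log2 change of -0.36 (SE 0.0760, edgeR adjusted p = 0.0182), and this call was lost without UVB b (-0.29, adjusted p = 0.0551). Arnt2, a close relative of Arnt, went from 47.5 ± 4.20 to 36.8 ± 4.89 CPM, a log2 change of -0.37 (SE 0.102, edgeR adjusted p = 0.0426). Its call was lost in 8 of 17 settings: both fits on TPM, and the fits without control a, b, c or d, UVB a or UVB c, with adjusted p up to 0.122. Hif1a had a log2 change of 0.14 and was not called (edgeR adjusted p = 0.236), although every UVB library lay above every control.

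The coactivator genes Ncoa1 and Ncoa2 both fell, and both calls held in each of 17 settings. Ncoa1 went from 138.5 ± 2.06 CPM (SD, n = 4) to 113.3 ± 7.02 (SD, n = 3), a log2 change of -0.29 (SE 0.0591, edgeR adjusted p = 0.0155). Ncoa2 had 75.0, 78.8, 78.9 and 79.5 CPM in the controls and 60.1, 60.7 and 66.0 after UVB, a log2 change of -0.33 (SE 0.0597, edgeR adjusted p = 0.0106). None of the 5 further coregulators tested was called. Ep300, also on the list, was not tested: it had 1.84 counts in control d and 0 in every other library.

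The chaperones that hold the receptor in the cytosol were not called in any of 5 cases. The abundant Hsp90ab1, at 1633 ± 49.7 CPM (SD, n = 4) in the controls, had a log2 change of 0.15 (edgeR adjusted p = 0.185). Its UVB libraries all lay above every control. DESeq2 called Hsp90ab1 (0.15, adjusted p = 0.0190), and over 17 settings the adjusted p ran from 0.0190 to 0.368. Of 10 enzymes that turn tryptophan into ligands or their precursors, 5 had enough counts and none of these was called. Ido1, the inducible enzyme at the entry to this route, had 0 counts in all 7 libraries, which allows up to 3 counts, or 0.104 to 0.145 CPM before TMM scaling, in a library (counting error only). Another annotated gene overlaps Ido1 in GRCr8, and whether reads of Ido1 were assigned elsewhere was not tested. The 0 counts therefore need not mean that its RNA was absent.

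**Figure D4:**
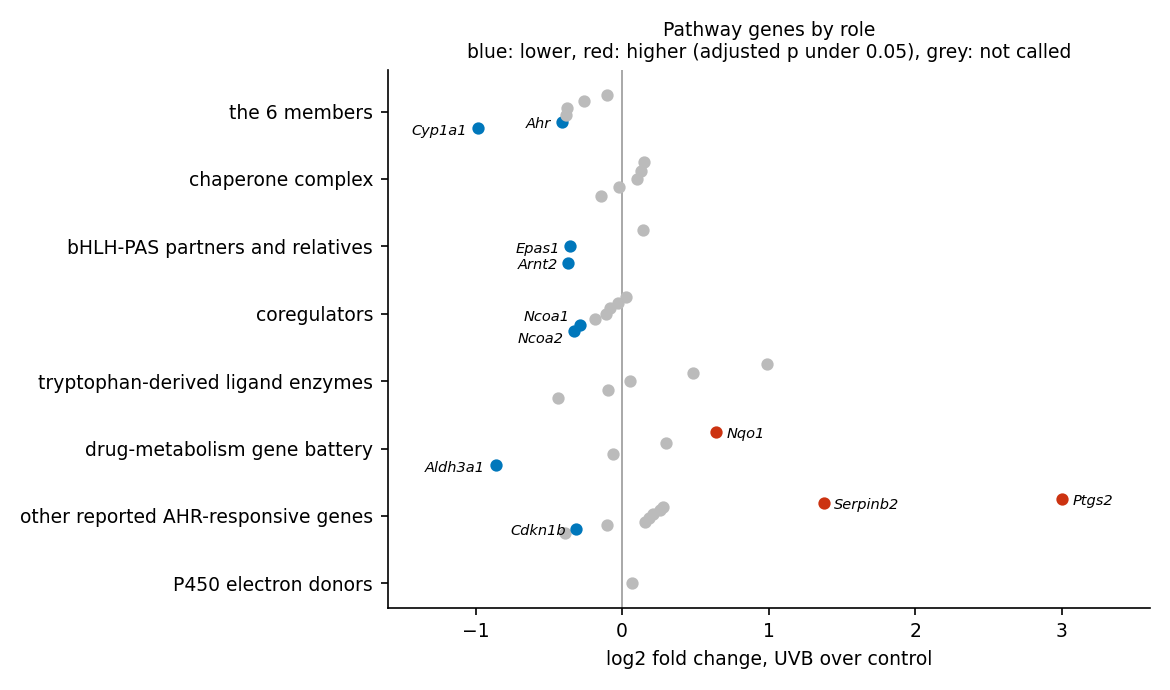
Log2 fold change (UVB over control) of the 6 members and the 35 tested genes of the pathway list, by role; blue points were called lower, red points higher, and grey points were not called. The members all lie below 0, while the receptor-responsive genes spread from below 0 to 3.00 for Ptgs2.

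Genes reported elsewhere to respond to the receptor went both ways. Ptgs2, which encodes the inducible cyclooxygenase COX-2, had 0.560, 0.653, 0.517 and 0.684 CPM in the controls and 8.77, 2.98 and 2.93 CPM after UVB. UVB a stood far above the other UVB libraries. Ptgs2 rose with a log2 change of 3.00 (SE 0.436, edgeR adjusted p = 0.00594), which became 2.29 without UVB a (adjusted p = 0.00341). The call held in all 15 settings that tested it, with adjusted p up to 0.0241.

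Serpinb2, a plasminogen activator inhibitor gene of keratinocytes and macrophages, rose from 17.2 ± 3.71 CPM (SD, n = 4) to 44.7 ± 16.5 (SD, n = 3), a log2 change of 1.38 (SE 0.281, edgeR adjusted p = 0.0223). Its call was lost without control a, b or c or UVB a, with adjusted p up to 0.0577. Cdkn1b, which encodes the cell cycle inhibitor p27, went the other way with a log2 change of -0.32 (SE 0.0738, edgeR adjusted p = 0.0249). Its call was lost without control d, UVB b or UVB c, with adjusted p up to 0.0780. Nedd9 (0.18, adjusted p = 0.231) and the Notch target Hes1 (-0.10, adjusted p = 0.457) were not called by edgeR.

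Each member was set beside 11350 genes by the root mean square difference of their log2 CPM over the 7 libraries, each centred on its own mean. Nearest to Cyp1a1 were Unc13d, a gene of granule exocytosis, at 0.119 and Fam81a at 0.120, where the median gene lay at 0.559. Unc13d had a log2 change of -0.86 (edgeR adjusted p = 0.0171) and Fam81a one of -0.79 that was not called (adjusted p = 0.0515). Nearest to Ahr were the autophagy gene Atg14 at 0.0454 and Afap1l1 at 0.0574, against a median of 0.285, and neither was called by edgeR.

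Nearest to Tiparp were Ltbp4 at 0.0145 and Fyco1 at 0.0330, against a median of 0.211. Tiparp itself missed the threshold, while Ltbp4 (-0.26, edgeR adjusted p = 0.0328) and Fyco1 (-0.24, adjusted p = 0.0306) passed it. Both were more abundant, at 205.9 and 121.1 CPM in the controls against 27.5 CPM for Tiparp. For every nearest gene, a similar fold change follows from the choice by likeness over these same libraries. Cyp1b1 lay nearest to Zfp622 (0.0494) and to the co-chaperone gene Dnajb9 (0.0564), against a median of 0.264. Arnt lay nearest to Bag6 (0.0156) and Aftph (0.020), and Ahrr to the receptor tyrosine kinase gene Ret (0.0782) and the WNT modulator gene Dkk2 (0.0837). Over so few libraries such likeness is a description only.

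Markers of several cell types moved with UVB beside the members. The summed meibocyte markers overlapped between groups, at 90551 to 112490 CPM in the controls and 85934 to 106290 CPM after UVB. That sum was mostly Scd, at 79749 CPM in the controls and 77588 CPM after UVB (log2 fold change -0.04, edgeR adjusted p = 0.879). Awat2, 1 of 6, was called lower (log2 fold change -0.66, edgeR adjusted p = 0.00453). It went from 9122 to 5782 CPM, with every UVB library below every control. The groups of the other meibocyte markers overlapped. Of the Langerhans cell list both markers were called lower and the sums did not overlap (282 to 330 against 239 to 254 CPM), but that sum was mostly Epcam, a general epithelial gene, at 298 CPM in the controls. Cd207, the defining marker, went from 16.2 to 6.82 CPM (log2 fold change -1.24, edgeR adjusted p = 0.0167). Sums were also lower, with no overlap, for melanocytes (44.7 to 89.0 against 30.6 to 38.6 CPM, 1 of 2 called lower) and Schwann cells (96.0 to 111 against 67.4 to 76.4 CPM, 1 of 3).

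The endothelium sum was higher with no overlap (56.6 to 70.8 against 87.6 to 101.6 CPM, 2 of 3 called higher). The sum for basal and duct keratinocytes was higher too (10021 to 12050 against 12079 to 13373 CPM), but only Krt14 was called (0.47, edgeR adjusted p = 0.0173), and Krt5 (-0.02) and Krt17 (-0.04) were not. The mast cell sum (36.3 to 50.9 against 55.1 to 60.1 CPM) was mostly Kit, which was not called (0.37, edgeR adjusted p = 0.0693), while the scarce Cpa3 was called higher (1.09, adjusted p = 0.0223).

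The sums of the other 7 lists overlapped between the groups, although single markers in 3 of them were called. Of the fibroblast markers 3 of 5 were called higher by edgeR, Lum (1.95), Dcn (0.95) and Pdgfra (0.91), at sums of 2418 to 3756 CPM in the controls and 2456 to 4094 CPM after UVB. Of the macrophage markers 2 of 4 were called higher, Cd163 (3.5) and Mrc1 (1.75), at sums of 46.5 to 84.8 and 64.1 to 122.9 CPM. Of the suprabasal epidermis markers 1 of 4 was called lower, Krt77, which went from 43.9 to 0.746 CPM (log2 fold change -5.90, adjusted p = 0.00348). No pericyte, T cell, muscle or adipocyte marker was called.

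No marker was at 0 in every library. In these bulk libraries fewer cells of a type and less RNA per cell cannot be told apart, and the part of these cell types in the levels of the members was not tested.

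**Figure D5:**
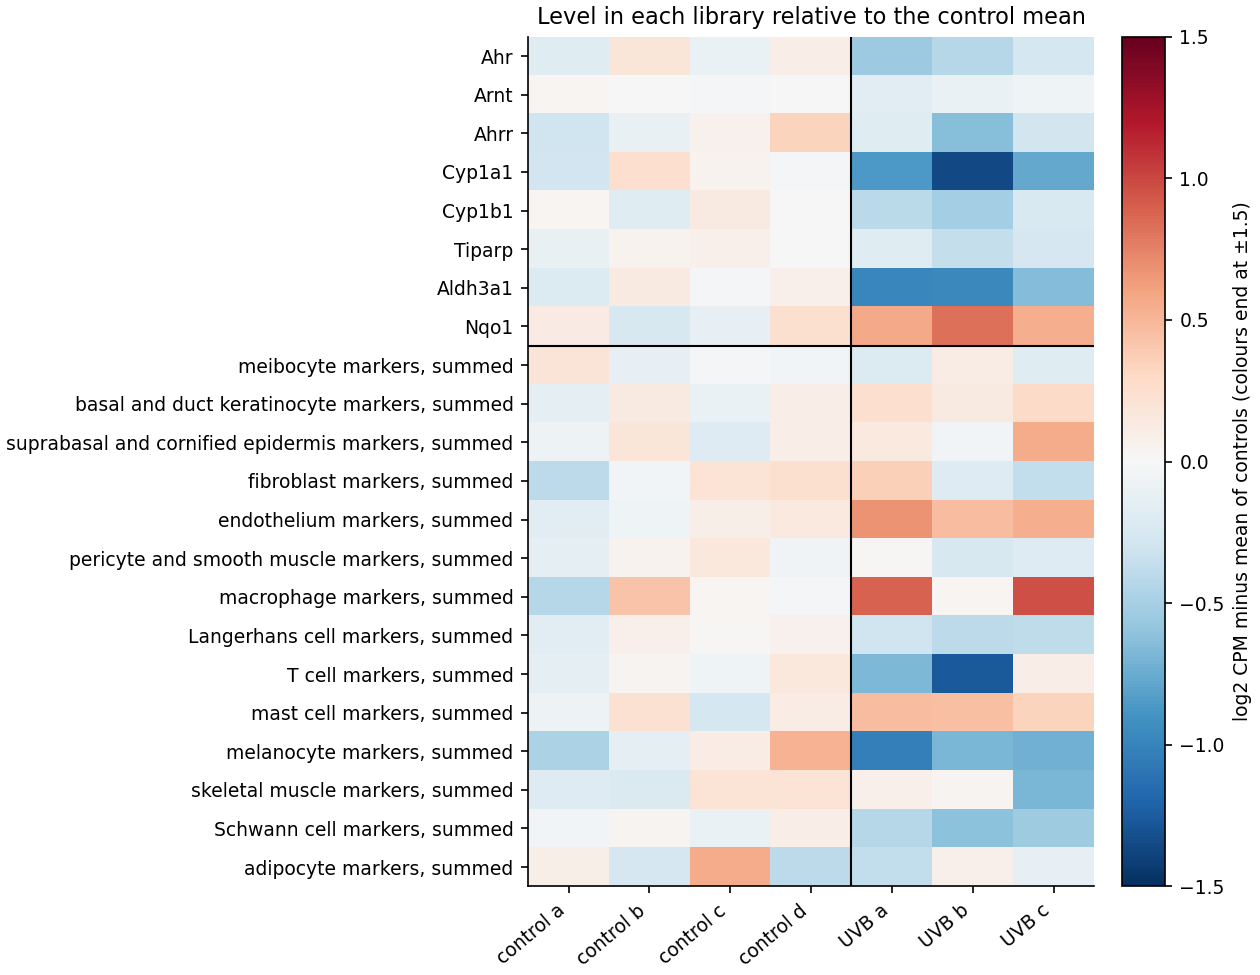
Log2 CPM of the members, Aldh3a1, Nqo1 and the 14 summed marker lists in each library, relative to the mean of the 4 controls; blue is lower and red is higher. Cyp1a1 and Aldh3a1 are blue and Nqo1 is red in all 3 UVB libraries, while the summed meibocyte markers, mostly Scd, are mixed.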

How the data were processed

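For 4 control and 3 UVB libraries the authors deposited expected counts per gene, which are read estimates with no normalisation (12.5% of values are not whole). A second table holds TPM values as deposited by the authors, a unit that by definition corrects for gene length and is scaled to a common total per library. Per the submitters' processing notes the tools were FastQC, Trimmomatic, DRAGEN and Picard with genome build rn7, with no roles or versions; the annotation and strand setting are not given in the sources used here. Unquoted commas in gene names moved the cells of 2281 rows, so the 7 values were taken as the final cells of each row. Of 17251 rows, 5 held text among the values and were dropped; 17246 genes remained in each table and 17245 were common to both. The ratio of count to TPM was checked in 11951 genes with at least 30 counts and 0.3 TPM: 10 were off by more than 1.5 times in a library, 0 of them members. The TPM used here sum to 82.0% to 84.1% of the full total. The columns name a library's group but not its replicate number.

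Counts were rounded and tested over the whole table by the quasi-likelihood test of edgeR 4.0.16 under R 4.3.3, with robust estimation, TMM factors and filterByExpr, leaving 13709 genes. The two-sided p-values were adjusted by Benjamini-Hochberg, and genes under 0.05 were called. CPM were computed here. TPM ratios were compared with an exact permutation test. Alternative settings changed the tool (DESeq2 1.42.0, or voom in limma 3.58.1), the scaling (upper quartile, DESeq2 size factors, or library size only), the filter (none, or mean counts of 50 and over) or the unit (limma-trend on TPM after adding 1 or 0.1 and taking log2, keeping mean TPM values of 1 and over). Others left out each library in turn or used unrounded counts, the latter chosen after seeing the data. The ratios were also computed with 1 and 0.01 TPM added. The fits were tested on simulated data. Names, overlapping genes and promoter windows came from RefSeq tables of assembly GRCr8, matched by symbol.

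The members, the pathway list and the marker lists were chosen with earlier results of these data known. Named genes were the 6 members, 12 fixed pathway genes (1 of which is not reported here), pathway genes past the threshold (at most 10) and the 2 genes nearest each member among genes with a mean count of at least 50. Cyb5a and Ugt1a7c of the pathway list and 5 listed markers were not analysed here. Library totals of 20680237 to 28784941 counts set the precision; the limit of 3 counts for a gene at 0 covers counting error only.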

Additional observations from a re-analysis of the deposited data

Results flagged for a closer look

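Of 38 named values examined over the 4 controls, 3 had 1 library far from the others, measured as its gap to the nearest control divided by the range of the controls, where chance alone gives about 1 in 20, or 1.9 of 38. For Ncoa2 the gap was 0.856: control a had 75.0 CPM and the other controls 78.8 to 79.5. For Hes1 it was 0.898: control b had 67.0 CPM and the others 54.4 to 55.7. For Unc13d, the gene nearest to Cyp1a1, it was 0.854: control a had 19.4 CPM and the others 27.4 to 28.8. Values of the 6 members were not among the 3.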

How the results depend on the processing

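All 6 members kept a log2 fold change below 0 in each of the 17 alternative settings. The values of Cyp1a1, Ahrr and Arnt kept their side of the threshold in all 17. Ahr kept its call in 12; leaving out 1 library moved it from -0.49 to -0.35. Under DESeq2, Cyp1b1 (-0.38) and Tiparp (-0.26) passed the threshold, and leaving out 1 library moved Tiparp from -0.31 to -0.21. The median of the pathway list was -0.022 without the low-count filter and ran from -0.0023 to 0.049 with 1 library left out, while 7 to 12 of its genes were called. The log2 ratio of Ahrr to Ahr differed by -0.074 to 0.19 with 1 library left out, and that of Cyp1b1 to Cyp1a1 by 0.46 to 0.71 over its alternatives. Of all genes, 851 (without control c) to 1898 (without control a) were called with 1 library left out, 2451 by DESeq2 and 1787 as reported; no scaling moved the median of all genes by more than 0.1. No paired analysis was possible because column names of the tables give only the group, so the planned fit with a replicate block was not run. Ahrr, with 55 to 101 counts per library, had the widest interval of the members, and Ptgs2 was left out of both fits on TPM by their filter.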
